A study of Mus musculus with 4 samples.

Results

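The genes described are secreted or epithelial defence proteins of the gut: the Reg lectins Reg3b, Reg3g, Reg3a and Reg4, the siderophore-binding lipocalin Lcn2, the acute-phase proteins haptoglobin (Hp), Saa3 and Saa1, the antibody transporter Pigr and the inducible nitric oxide synthase Nos2. They were chosen by name, with earlier results of these arrays known. Of the 10 listed genes, 9 had a probe set annotated to exactly 1 symbol, out of 22180 such genes on the array, and 8 reached the level that served as a floor. This level was log2 4.67, the median of the mean levels of all genes, and 12060 genes reached it on at least 1 array. Saa1 shared its probe set with Saa2, so no value is given for it, and Reg3a stayed below the level on all 4 arrays.

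RNA came from normal colon and colon tumours of C57BL/6 mice aged 3 months. Each tissue was profiled on 1 whole-transcript array for mice of the genotype CDX2; Dmt1+/+/ApcF/+ and on 1 array for CDX2; Dmt1F/F/ApcF/+, 4 arrays in all. Both genotypes therefore share ApcF/+, a conditional allele of the tumour suppressor Apc on 1 chromosome, and the element labelled CDX2. The labels do not name a Cre or its promoter. By convention F denotes a conditional (floxed) allele. The design text gives n = 7 for Dmt1+/+ and n = 4 for Dmt1F/F without saying how these map to 1 array per tissue, and pooling is not stated. No group had a replicate, so a difference between single arrays carries no error estimate.

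Reg3 lectins are made by intestinal epithelium and bind the cell wall of bacteria, and they keep microbes away from the surface of the mucosa. Their transcription follows signals through MyD88 and through interleukin-22 and STAT3. Lcn2 captures bacterial siderophores and so withholds iron from microbes. Haptoglobin binds free haemoglobin, and serum amyloid A proteins are induced by interleukin-1 and interleukin-6 in liver and at inflamed surfaces. Pigr carries dimeric IgA across the epithelium, and Nos2 makes nitric oxide from arginine.

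Slc11a2, the gene of the iron importer Dmt1, was at log2 6.51 in Dmt1+/+ normal colon, 6.13 in Dmt1F/F normal colon, 6.64 in Dmt1+/+ tumour and 6.19 in Dmt1F/F tumour. Both Dmt1F/F arrays were thus lower, with differences of -0.38 for the normal tissue and -0.45 for the tumours, and the limma genotype estimate was -0.41 (SE 0.12, adjusted p = 0.564). Of 5 general epithelial markers, 5 were above the floor level on each array, so epithelium was part of each bulk sample. Markers of position along the colon differed between the tissues and also between the normal arrays: 5 of 9 proximal genes were 2-fold or more higher in Dmt1F/F than in Dmt1+/+ normal colon, and 3 of 7 distal genes were 2-fold or more lower. Over all genes tested these shares were 0.713% and 0.904%. The 3 distal genes, Hoxb13, Hoxd13 and Hoxd11, read under the floor level in Dmt1F/F normal colon. The proximal gene Sis read under it in Dmt1+/+ normal colon, so the sizes of these differences are uncertain.

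The first comparison asked how these defence genes differ between colon tumour and normal colon. Reg3b and Reg3g fell in tumour by about 9-fold and 6-fold, and Lcn2 rose by about 12-fold, in each case on both genotypes' arrays. Reg4, a Reg protein of goblet and endocrine cells, was higher in both tumours but did not pass the test. Hp and Saa3 were higher in the Dmt1+/+ tumour alone. Pigr and Nos2 differed little between the tissues. In the limma model, which takes tissue and genotype as additive terms over the 4 arrays, 3 of the 8 members passed at an adjusted p of 0.05, 1 of them higher and 2 lower, where 11.0% of all genes tested rose and 8.23% fell (19.3% in all). By single pairs of arrays, 4 of 8 members were 2-fold or more higher and 2 lower in the Dmt1+/+ tumour, against 6.56% and 5.31% of all genes. In the Dmt1F/F tumour 1 of 8 was 2-fold or more higher and 2 lower, against 5.98% and 3.81%. Since the members were chosen with earlier results of the arrays known, these shares describe them and do not test them. Of all calls 57.3% were higher, but 46.4% after cyclic loess scaling, 47.5% after quantile scaling and 49.3% with arrays centred on their medians.

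**Figure D1:**
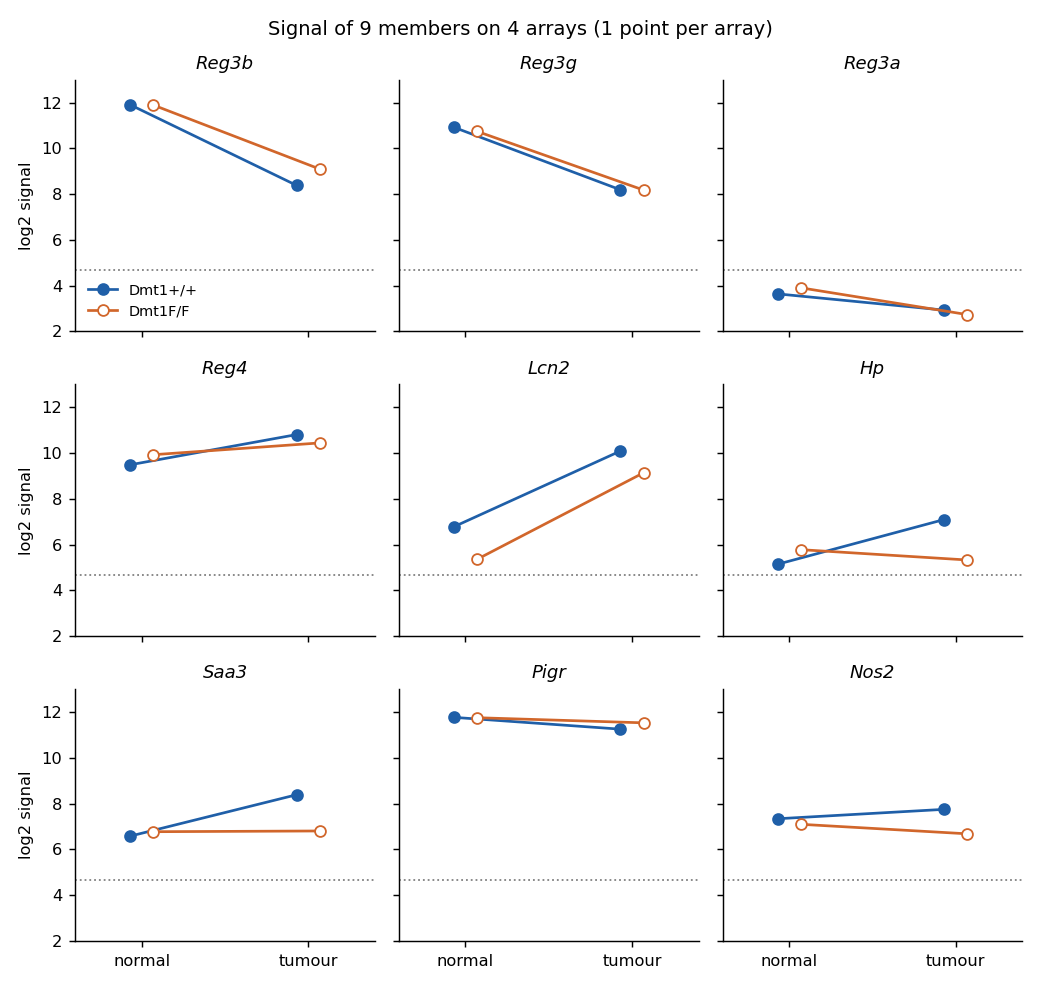
The log2 signal of the 9 members with a probe set is drawn for normal colon and tumour, with filled blue points for Dmt1+/+ and open orange points for Dmt1F/F, 1 point per array, and a dotted line at the floor level of log2 4.67. Reg3b and Reg3g drop from normal colon to tumour along both lines, Lcn2 climbs along both, and the lines of Hp and Saa3 separate in the tumour.

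Reg3b was at log2 11.91 in Dmt1+/+ normal colon and 11.89 in Dmt1F/F normal colon, against 8.38 in Dmt1+/+ tumour and 9.09 in Dmt1F/F tumour. The normal arrays lay together and both tumour arrays lay lower, with no overlap. Over all genes tested, normal and tumour arrays did not overlap for 69.2% (40.1% higher and 29.2% lower in tumour), so the separation alone is common on these arrays. Its size was not: Reg3b fell by 3.16 on the log2 scale (SE 0.20, limma adjusted p = 0.00597), and its difference was -3.53 (11.5-fold) in the Dmt1+/+ pair, where 0.166% of genes lay at or under it. In the Dmt1F/F pair it was -2.80 (6.97-fold), with 0.282% of genes at or under it.

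Reg3g was at log2 10.92 and 10.74 in Dmt1+/+ and Dmt1F/F normal colon, and at 8.19 and 8.18 in the tumours of these genotypes. Here the arrays of each tissue nearly coincided, and both tumours were low. Reg3g fell by 2.65 (SE 0.11, limma adjusted p = 0.00349), with a log2 difference of -2.73 in Dmt1+/+ and -2.57 in Dmt1F/F mice. Reg3g passed in all 4 fits that leave out 1 array and keep tissue as the only term (adjusted p 0.00618 to 0.0384). Reg3b passed in 3 of them, and without the Dmt1F/F normal array its estimate was -3.17 with an adjusted p of 0.0662. In those fits a lone array is assumed to vary like the pair on the other side.

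Because these genes moved together, the sequences ahead of their starts are shown with that of Reg3a, the neighbour that stayed under the floor level. Each runs from 250 bases before to 50 bases after a RefSeq transcript start in GRCm38.p6, 5′ to 3′. Capitals mark any match, on either strand, to the STAT motif TTCNNNGAA, the C/EBP motif TTNNGCAA, an NF-kB motif of GGG and TCC parted by any 4 bases or the TATA motif TATAAA.
Reg3b (chr6:78370635-78370934, + strand): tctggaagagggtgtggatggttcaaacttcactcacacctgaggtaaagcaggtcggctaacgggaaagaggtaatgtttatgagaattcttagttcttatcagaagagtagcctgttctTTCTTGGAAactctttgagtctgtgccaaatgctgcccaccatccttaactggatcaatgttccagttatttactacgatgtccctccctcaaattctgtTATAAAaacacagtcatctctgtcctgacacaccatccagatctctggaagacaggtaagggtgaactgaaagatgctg
Reg3g (chr6:78468825-78469124, - strand): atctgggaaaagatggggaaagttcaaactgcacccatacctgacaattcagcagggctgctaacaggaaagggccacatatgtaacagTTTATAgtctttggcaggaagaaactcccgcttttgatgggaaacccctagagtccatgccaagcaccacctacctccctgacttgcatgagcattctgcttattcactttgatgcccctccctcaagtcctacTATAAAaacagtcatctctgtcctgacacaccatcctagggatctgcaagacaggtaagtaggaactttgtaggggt
Reg3a (chr6:78380459-78380758, + strand): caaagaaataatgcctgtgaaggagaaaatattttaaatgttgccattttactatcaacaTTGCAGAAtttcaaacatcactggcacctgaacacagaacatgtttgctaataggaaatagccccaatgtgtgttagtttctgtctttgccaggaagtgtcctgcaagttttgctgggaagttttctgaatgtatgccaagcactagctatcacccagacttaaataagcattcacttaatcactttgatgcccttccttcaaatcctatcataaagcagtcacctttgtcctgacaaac
In a global alignment the Reg3b and Reg3g windows were 68.1% identical over 304 columns, against 47.7% for Reg3b with Reg3a and 52.4% for Reg3g with Reg3a. Reg3b and Saa3, which belong to different families, gave 51.7%, while Reg3a gave 47.0% with Saa3 and 44.8% with Lcn2. These values alone do not settle how closely the Reg3a window is related to the other 2. The last bases of the Reg3a window resemble those around TATAAA in the Reg3g window, where they lie further from the window's end. The Reg3a window is thus displaced against that of Reg3g. Its identities and motif matches therefore cannot be set directly beside those of the other 2. TATAAA lay 29 bases before the Reg3b start and 27 bases before the Reg3g start. Reg3g also held its reverse complement 161 bases before the start, and 13.6% of the 32851 promoter windows in the table hold the motif. The STAT motif was present in Reg3b, 129 bases before the start, as TTCTTGGAA, and 8.30% of all windows hold it. Reg3g and Reg3a had no match to it in this window. These matches describe letters and not binding.

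The other Reg3 lectins and Reg1 and Reg2 were low. Reg3a read log2 3.64 and 3.91 in Dmt1+/+ and Dmt1F/F normal colon and 2.93 and 2.73 in the tumours, all under the floor level, so its differences of -0.71 and -1.17 are uncertain in size and direction. Reg1, Reg2 and Reg3d, lectins best known from pancreas and regenerating tissue, were also below the level on all arrays, between log2 2.00 and 3.18. Since Reg3b, Reg3g and Reg3a are close relatives, cross-hybridisation between their probes was not tested, and the split of signal among them is uncertain.

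Reg4 was well above the floor level. It was at log2 9.49 and 9.93 in Dmt1+/+ and Dmt1F/F normal colon and at 10.81 and 10.45 in the tumours. Both tumour arrays were higher than both normal arrays, by 1.32 within Dmt1+/+ and 0.52 within Dmt1F/F. The limma estimate was 0.92 (SE 0.22, adjusted p = 0.0524). It lies next to the threshold, and under 3 of 8 planned settings the adjusted p fell below 0.05, with a range over all 8 of 0.0178 to 0.0789.

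Markers of other cells and of position moved with the Reg3 genes. Of 10 colonocyte markers 6 fell in tumour, with the sulfate transporter Slc13a1 at -4.31 and the fatty acid binding protein Fabp2 at -4.15, and all 10 were 2-fold or more lower in the Dmt1+/+ tumour against 4 in the Dmt1F/F tumour. For 3 of the 6, Slc13a1 included, a tumour array read under the floor level. Their summed linear signal was 14295 and 16105 in Dmt1+/+ and Dmt1F/F normal colon and 3894 and 9771 in the tumours. Of 9 proximal position genes 6 fell, such as the transcription factor Osr2 at -4.25, and 1, Onecut2, rose, and of 7 distal genes 3 rose, such as Hoxb13 at 1.91. For 5 of these 6 proximal genes and for Hoxb13 and Hoxd11 an array on the lower side read under the floor level. Onecut2 read under it on both normal arrays, so such sizes are uncertain. The part of cell content and of position in the Reg3 differences was not tested, and in bulk tissue fewer cells of a type and less RNA per cell cannot be told apart. The summed proximal signal was 784 in Dmt1+/+ and 2093 in Dmt1F/F normal colon, and between these arrays Reg3b differed by -0.02 and Reg3g by -0.18. With 1 array per genotype, genotype and position cannot be told apart in these differences. General epithelial signal was close on all arrays, 6983 to 7487, with 1 of 5 markers, Vil1, lower in tumour (-0.65).

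**Figure D2:**
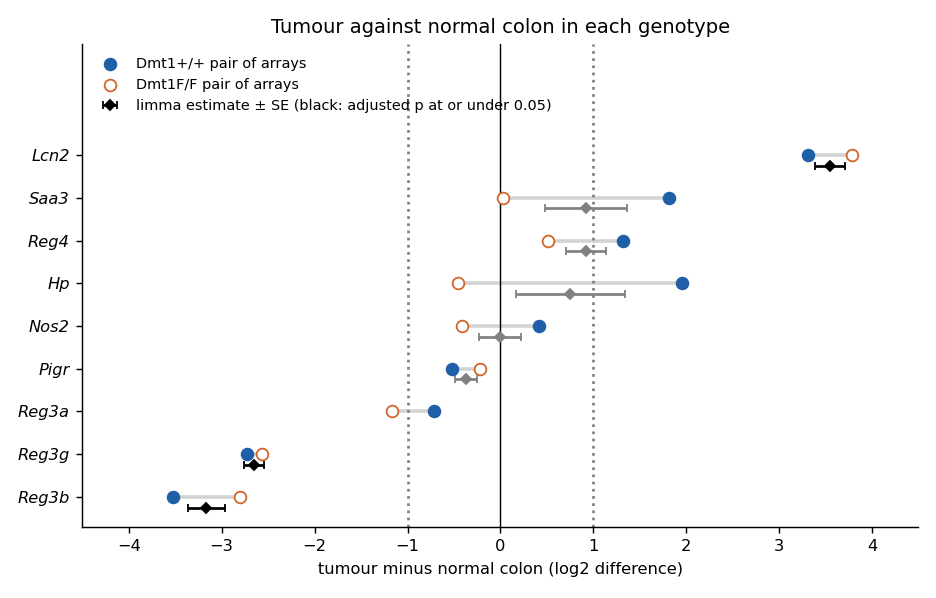
Log2 differences of tumour minus normal colon are drawn per member for the Dmt1+/+ pair (filled blue) and the Dmt1F/F pair (open orange), with the limma estimate and its standard error as a diamond, black where the adjusted p was at or under 0.05. Dotted lines mark 2-fold. Reg3b and Reg3g lie left of -2.5 in both genotypes and Lcn2 right of 3.3, while the genotypes lie on opposite sides of 0 for Hp and Nos2.

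Lcn2 was at log2 6.78 and 5.36 in Dmt1+/+ and Dmt1F/F normal colon and at 10.09 and 9.14 in the tumours. Both tumours were high, and the Dmt1F/F array was the lower in each tissue. The increase was 3.31 in Dmt1+/+ and 3.78 in Dmt1F/F mice, so that 0.315% and 0.158% of genes were as high or higher. Lcn2 rose by 3.55 in the limma model (SE 0.16, adjusted p = 0.00381). With tissue as the only term it passed in 2 of 4 fits that leave out an array, and the estimate was 2.84 without the Dmt1F/F normal array (adjusted p = 0.0903) and 3.07 without the Dmt1+/+ tumour array (adjusted p = 0.0870).

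Haptoglobin was at log2 5.14 in Dmt1+/+ normal colon, 5.78 in Dmt1F/F normal colon, 7.10 in Dmt1+/+ tumour and 5.33 in Dmt1F/F tumour. Only the Dmt1+/+ tumour array was high, and the tissues overlapped. The tumour difference was 1.96 in Dmt1+/+ and -0.45 in Dmt1F/F mice, and the limma estimate over both was 0.75 (SE 0.59, adjusted p = 0.397).

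Saa3, the serum amyloid A made by macrophages, adipocytes and epithelium, read log2 6.58 and 6.77 in Dmt1+/+ and Dmt1F/F normal colon, 8.39 in Dmt1+/+ tumour and 6.81 in Dmt1F/F tumour. The Dmt1+/+ tumour again stood above 3 arrays that lay within a narrow band. The difference was 1.81 in Dmt1+/+ and 0.03 in Dmt1F/F mice (limma estimate 0.92, SE 0.44, adjusted p = 0.201). Without the Dmt1F/F tumour array, and with tissue as the only term, the estimates were 1.64 for Hp (adjusted p = 0.0345) and 1.71 for Saa3 (adjusted p = 0.0124), where the adjusted p over all 4 fits of this kind ranged from 0.0345 to 0.841 and from 0.0124 to 0.738.

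The promoter windows of Lcn2 and Saa3 are shown because both were high in the Dmt1+/+ tumour and parted in the Dmt1F/F tumour; capitals mark the same motifs.
Lcn2 (chr2:32387690-32387989, - strand): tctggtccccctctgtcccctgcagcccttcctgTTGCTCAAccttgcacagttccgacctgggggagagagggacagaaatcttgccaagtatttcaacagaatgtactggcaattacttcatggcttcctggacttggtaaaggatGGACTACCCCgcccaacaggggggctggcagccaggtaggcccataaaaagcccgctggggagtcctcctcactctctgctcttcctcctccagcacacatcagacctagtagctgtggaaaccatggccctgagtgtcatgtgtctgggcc
Saa3 (chr7:46715627-46715926, - strand): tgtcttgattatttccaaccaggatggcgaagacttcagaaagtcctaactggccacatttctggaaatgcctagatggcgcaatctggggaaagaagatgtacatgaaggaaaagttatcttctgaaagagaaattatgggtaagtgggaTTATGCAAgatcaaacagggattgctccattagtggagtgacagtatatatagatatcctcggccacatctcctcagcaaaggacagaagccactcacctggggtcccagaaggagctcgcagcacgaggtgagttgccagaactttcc
Both windows held the C/EBP motif, 216 bases before the Lcn2 start as TTGCTCAA and 99 bases before the Saa3 start as TTATGCAA, as do 10.8% of all windows. Lcn2 also held the NF-kB motif on the reverse strand, 102 bases before its start, as do 19.2% of all windows. Neither window matched the STAT or TATA motif in these letters. The windows were 46.4% identical.

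Pigr was at log2 11.77 and 11.76 in Dmt1+/+ and Dmt1F/F normal colon and at 11.26 and 11.53 in the tumours. Both tumours were a little lower, by -0.52 and -0.22, and the limma estimate was -0.37 (SE 0.11, adjusted p = 0.0880). The joining chain of IgA, Jchain, which marks plasma cells, was at 10.33, 9.35, 10.01 and 10.11 in Dmt1+/+ normal, Dmt1F/F normal, Dmt1+/+ tumour and Dmt1F/F tumour, and its estimate was 0.22 (adjusted p = 0.587).

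Nos2 was at log2 7.34 and 7.10 in Dmt1+/+ and Dmt1F/F normal colon, 7.75 in Dmt1+/+ tumour and 6.68 in Dmt1F/F tumour. The tumours lay on either side of the normal arrays. The tumour differences of 0.41 and -0.42 cancelled, and the limma estimate was -0.003 (SE 0.23, adjusted p = 0.994).

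The second comparison asked how the Dmt1 genotype differs within each tissue. In tumour, Hp, Saa3 and Nos2 were 2-fold or more lower in Dmt1F/F than in Dmt1+/+, and Lcn2 came close to that. In normal colon Lcn2 alone was 2-fold or more lower. No member was 2-fold or more higher in Dmt1F/F in either tissue, as 1.7% of all genes were in tumour and 0.713% in normal colon. Thus 3 of 8 members were lower by this measure in tumour, where 0.506% of all genes were, and 1 of 8 in normal colon, where 0.904% were. These genes were chosen with earlier results of the arrays known, so the shares describe them and do not test them. In the limma model 0 genes of 12060 passed for genotype, with 991 (8.22%) at an unadjusted p under 0.05, among them Lcn2 and Nos2.

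In the Dmt1F/F tumour, Hp differed from the Dmt1+/+ tumour by -1.77, or 3.41-fold, and 0.0746% of genes were as low or lower. Saa3 differed by -1.58, or 3.00-fold (0.0995% of genes), Nos2 by -1.07, or 2.10-fold (0.398%), and Lcn2 by -0.95, or 1.93-fold (0.597%). In normal colon the same genes differed by 0.64 (Hp), 0.19 (Saa3), -0.24 (Nos2) and -1.42 (Lcn2, 2.67-fold, 0.290% of genes). Lcn2 was therefore lower in Dmt1F/F in both tissues, with a limma genotype estimate of -1.18 (SE 0.16, adjusted p = 0.506). The 2-fold differences of Hp, Saa3 and Nos2 were seen in tumour. The normal arrays also differed in markers of position along the colon, so genotype and position cannot be told apart there.

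Paneth cell markers differed alongside Lcn2. Of 5 measured, 4 rose in tumour, and their summed linear signal was 764 and 333 in Dmt1+/+ and Dmt1F/F normal colon and 5304 and 3298 in the tumours. In normal colon 3 of 5 were 2-fold or more lower in Dmt1F/F, namely Pla2g2a (-2.52), Lyz1 (-1.49) and Mmp7 (-1.12). In tumour all 5 were lower in Dmt1F/F, none by 2-fold, with a median of -0.55. The part of Paneth cell content in the Lcn2 differences was not tested, nor that of position along the colon between the normal arrays.

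Among the remaining members, Reg3b was 0.71 higher in the Dmt1F/F tumour, Pigr was 0.28 higher, Reg4 differed by -0.36 and Reg3g by -0.01. In normal colon Reg4 differed by 0.44 and Pigr by -0.02. For these 4 genes limma's genotype estimates ran from -0.10 for Reg3g to 0.35 for Reg3b, with adjusted p-values of 0.692 to 0.977.

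**Figure D3:**
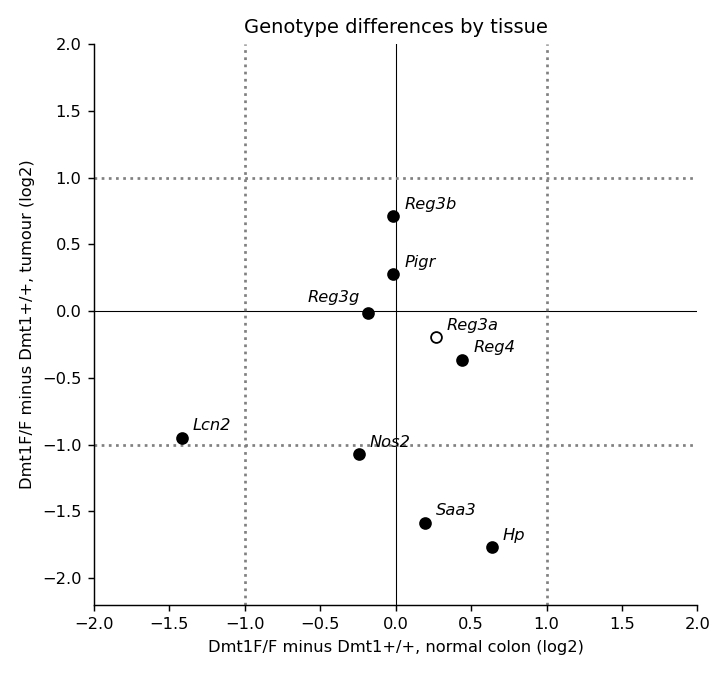
Each member is placed by its Dmt1F/F minus Dmt1+/+ log2 difference in normal colon (horizontal axis) and in tumour (vertical axis), with an open point for Reg3a, which is below the floor level, and dotted lines at 2-fold. Hp, Saa3 and Nos2 lie below -1 in tumour and within 2-fold in normal colon, and Lcn2 lies at -1.42 in normal colon and -0.95 in tumour.

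Neutrophil markers were compared in the same pair of tumours. Of the 11 listed, 7 reached the floor level on some array, and 6 of these were 2-fold or more lower in the Dmt1F/F tumour. For 5 of the 6 the Dmt1F/F tumour itself read under the floor level, so they were kept through the Dmt1+/+ tumour where they were high, and neither their count nor their sizes support a difference. Among them S100a8, which with S100a9 forms the calcium-binding protein calprotectin, differed by -1.90. All 7 were at or above the level in the Dmt1+/+ tumour, 2 in the Dmt1F/F tumour and 1 in each normal colon. Ly6g lay the other way (0.83), and its signal weighed heavily in the list's summed linear signal of 430, 237, 710 and 696 in Dmt1+/+ normal, Dmt1F/F normal, Dmt1+/+ tumour and Dmt1F/F tumour. Mpo, Elane, Ngp and Camp, which mark granule formation in neutrophils and their precursors, stayed below the level on all arrays. Of the B and plasma cell markers, all 8 above the floor level on some array were higher in the Dmt1F/F tumour, 4 of them 2-fold or more. Ms4a1 differed by 2.65 and Bank1 by 2.33. In this list 4 genes were at or above the floor level in the Dmt1+/+ tumour and 8 in the Dmt1F/F tumour. Among those counted at 2-fold, Ms4a1 (4.20) and Cr2 (3.80) read under it in the Dmt1+/+ tumour. Cr2 was kept through the Dmt1F/F tumour alone, so the count and the sizes are uncertain. Of the 10 colonocyte markers 6 were 2-fold or more higher in the Dmt1F/F tumour, with Aqp8, a water channel, at 2.46. The part of neutrophil, B cell and colonocyte content in the Hp, Saa3, Nos2 and Lcn2 differences was not tested.

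Other cell types that make acute-phase proteins gave further values. Macrophage markers differed less between the tumours, with a median of -0.15 over 9 genes and none past 2-fold, and their summed signal was 785, 583, 1377 and 1128 in the same order of arrays. Adipocyte markers had summed signals of 827, 1431, 249 and 353, with the lipid droplet protein Cidec at -2.14 among the 4 of 5 that fell in tumour. Of 7 hepatocyte markers 5 were below the floor level everywhere, Apoa1 and Fgb among them, and Alb rose by 1.24 in tumour (SE 0.14, limma adjusted p = 0.0149). Exocrine pancreas, the other main source of Reg proteins, had 1 of 7 measured markers above the level, the elastase Cela1, and Cpa1, Cpb1, Prss2 and Ctrb1 were all below it.

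**Figure D4:**
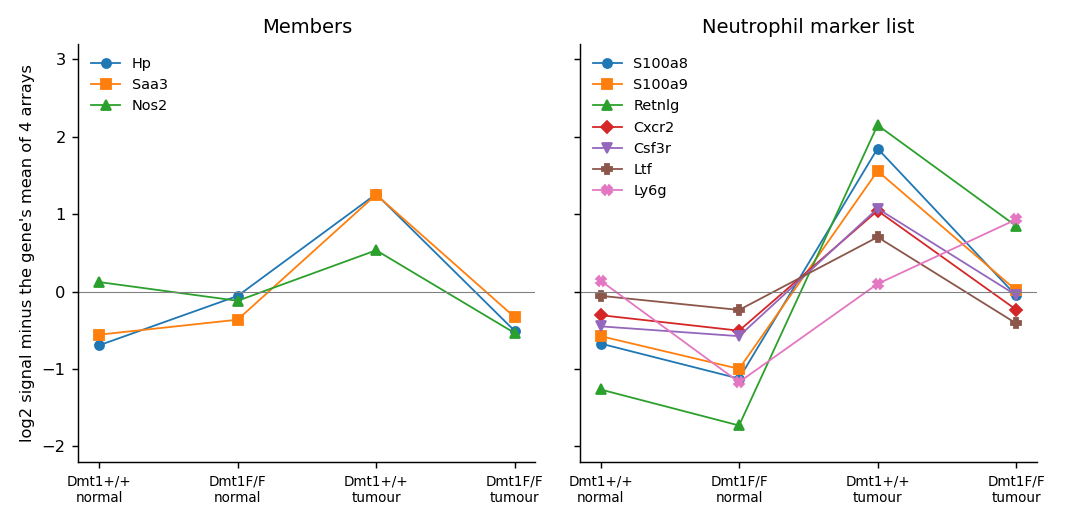
Log2 signals minus each gene's mean over the 4 arrays are drawn for Hp, Saa3 and Nos2 on the left and for the 7 neutrophil markers above the floor level on the right, with 1 point per array; lines only join points of a gene. The left genes and all right genes but Ly6g are highest in the Dmt1+/+ tumour. For 5 of the right genes only this array reached the floor level, so their high place there follows from the filter.

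The genes with the most similar pattern were found by Euclidean distance between centred log2 values over the 4 arrays, which is a weak measure with so few arrays. Hp had Saa3 as its nearest gene of all (distance 0.38), followed by Svopl and Tnfaip2. Saa3 had Svopl (0.07), the spectrin Sptb and the neutrophil chemokine receptor Cxcr2 (0.37). Sptb and Cxcr2 exceeded the floor level in the Dmt1+/+ tumour alone and Svopl read close to it on the other arrays, so their likeness to Saa3 is uncertain. Lcn2 had the metalloproteinase Mmp7 (0.39), Sting1 and the neutrophil chemokine Cxcl5 (0.50). Reg3b was nearest to the carbonic anhydrase-related Car8 (0.41), Arhgap20 and the mucin-type glycosyltransferase B3gnt6 (0.45), and Reg3g to Pcp4 (0.33), Ifit1bl2 and the gastric mucin enzyme A4gnt (0.42). Reg3b and Reg3g were 0.74 apart. Reg4 lay close to Tubg1, Pkp1 and Hmox1 (0.06 to 0.09), Pigr to Gm11696, Ddt and Uqcrh (0.02 to 0.03), and Nos2 to Trp53rka, Snord118 and Fance (0.19 to 0.23). Arhgap20, B3gnt6, Ifit1bl2 and Gm11696 read under the floor level in both tumours, and Hmox1 on both normal arrays. Trp53rka and Snord118 read under it on both Dmt1F/F arrays, and Cxcl5 in Dmt1F/F normal colon. The likeness of these genes to the members is therefore uncertain as well.

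The other genes of these pathways were followed in the same fits, beginning with the acute-phase proteins. Of 22 listed, 8 reached the floor level, 5 rose in tumour and none fell, with a median of 0.80 against 0.07 over all genes tested. Over all genes tested, 11.0% rose and 8.23% fell. The copper ferroxidase Cp rose by 1.97 (SE 0.13, limma adjusted p = 0.00618), and the interleukin-1 receptor antagonist Il1rn by 1.01, and Lrg1, Cd14 and the iron hormone Hamp also passed. Hamp exceeded the floor level in the Dmt1+/+ tumour alone (log2 5.21) and Lrg1 read under it in Dmt1F/F normal colon, so their sizes are uncertain. The 13 below the level on all arrays included the liver proteins Fga, Fgb, Fgg, Crp, Apcs and Hpx and all 3 orosomucoids. In this list the medians of Dmt1F/F minus Dmt1+/+ were -0.71 in normal colon and -0.56 in tumour, with no gene past 2-fold.

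Among other antimicrobial proteins of the mucosa, 19 of 26 were kept, of which 7 rose and 2 fell. The shares over all genes tested were 11.0% and 8.23%. The lysozyme Lyz1 rose by 4.74, the phospholipase Pla2g2a by 3.17 and the macrophage lysozyme Lyz2 by 1.15. S100a8 passed as well, but it exceeded the floor level in the Dmt1+/+ tumour alone (log2 6.24), so the size of its rise is uncertain. The goblet cell product Retnlb fell by 2.78 and the hydrogen peroxide source Duox2 fell by 0.70. Retnlb resembled Reg3b in its order of arrays: it was at log2 10.73 and 10.01 in Dmt1+/+ and Dmt1F/F normal colon, 6.67 in Dmt1+/+ tumour and 8.51 in Dmt1F/F tumour. Pla2g2a differed between the normal arrays by -2.52.

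Of the cytokines, receptors and factors that induce these genes, 22 of 31 were kept, 5 rose and 2 fell. Over all genes tested 11.0% rose and 8.23% fell, so the falls were near the general share. Il1b, a trigger of the acute-phase response, rose by 2.68 (SE 0.30, limma adjusted p = 0.0150), Tnf by 1.07 and the aryl hydrocarbon receptor Ahr by 0.92. Il23a, a cytokine upstream of interleukin-22, also passed (adjusted p = 0.00522), at log2 6.95 and 6.22 in the Dmt1+/+ and Dmt1F/F tumours, but it read under the floor level on both normal arrays (4.25 and 3.34), so the size of its rise is uncertain. The flagellin receptor Tlr5 fell by 0.84 and the interleukin-17 receptor subunit Il17rc fell by 0.74. Il22, Il22ra2, Il17a, Il17f, Il6, Ifng and Cebpb were below the floor level on all arrays, which does not show that they were absent. In the Dmt1F/F tumour Il1b was lower by a log2 difference of -2.02 and Tnf by -1.11, the 2 of 22 kept genes that were 2-fold or more lower. The median of the list in this pair of arrays was -0.09, with 13 genes lower and 9 higher. The part of these cytokines in the Hp, Saa3 and Nos2 differences was not tested.

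Arginine and nitric oxide metabolism had 15 of 18 genes kept, with 1 that rose and 2 that fell. This is close to the 19.3% called over all genes tested, so the count does not set these genes apart. The mitochondrial urea cycle enzyme Otc fell by 2.84 (SE 0.31, limma adjusted p = 0.0149) and was 1.78 higher in the Dmt1F/F than in the Dmt1+/+ tumour, where it read under the floor level (3.97). Ddah1, which breaks down an inhibitor of nitric oxide synthases, fell by 0.99, and the cationic amino acid carrier Slc7a7 rose by 0.72. The other synthases, Nos1 and Nos3, were below the floor level on all arrays. Of the receptors and partners of the members, 8 of 15 were kept and 1 passed, the endocytic receptor Lrp1, which fell by 1.10 (SE 0.12, limma adjusted p = 0.0141). That count is also not above the share over all genes.

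**Figure D5:**
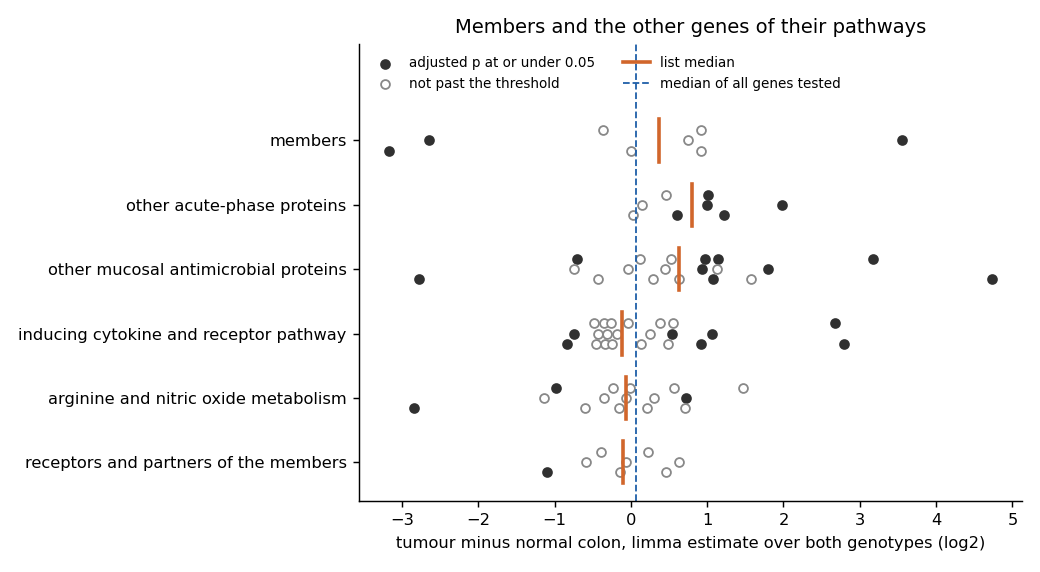
Points are limma estimates of tumour minus normal colon (log2) for the 8 members above the floor level and for the kept genes of 5 related lists, filled where the adjusted p was at or under 0.05; bars are list medians and the dashed line is the median of all genes tested, 0.07. The members spread from -3.16 to 3.55, while the acute-phase list has a median of 0.80 and no gene below 0.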

How the data were processed

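Per the labels, total RNA was extracted with Trizol and 400 ng were labelled with biotin for Affymetrix whole-transcript arrays. The values are log2 signals deposited by the authors, and the submitters' processing notes name RMA and oligo, with no version. RMA by default sets all arrays to a common distribution and gives no error or detection call for single values.

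Of 41345 probe sets, 23521 had 1 gene symbol in the platform annotation, 1814 several and 16010 none; 23328 of the single-gene probe sets matched RefSeq (GRCm38.p6). Of the 22180 genes, 1082 had several probe sets, and the one with the highest mean was used. Genes reaching log2 4.67 on any array were kept (12060). Columns of other samples numbered 0.

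Tissue and genotype were fitted as additive terms with limma 3.58.1 in R 4.3.3 (eBayes with trend, Benjamini-Hochberg over all 12060 genes, threshold 0.05), so that the interaction supplies the 1 residual degree of freedom. The tissue term of this fit was tested on simulated data with known changes, and the interaction cannot be tested with 1 array a group. Other comparisons are differences of 2 arrays, counted at log2 1, with no test. p-values measure only the spread between these arrays, which may be technical, and the number of arrays limits precision. If tumour and normal colon of a genotype shared animals, the genotype test leaves out animal-to-animal spread.

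The members and lists were chosen with earlier results of these data known. Named from each list were up to 4 genes called for tissue in each direction and up to 3 past 2-fold for genotype; other names were chosen after their values were seen. Alternatives varied the filter, scaling, probe set rule, model and fold. Promoter sequences are from RefSeq, and 8 of 10 members had one.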

Additional observations from a re-analysis of the deposited data

Results flagged for a closer look

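Several members had differences of opposite sign between the genotypes or tissues, each from single arrays, and none of these differences was tested. For Hp the tumour difference was 1.96 in Dmt1+/+ and -0.45 in Dmt1F/F mice, and the genotype difference was 0.64 in normal colon and -1.77 in tumour, so that both contrasts differ by -2.41; 0.207% of genes had a gap as large in size. For Nos2 the tumour difference was 0.41 in Dmt1+/+ and -0.42 in Dmt1F/F mice, a gap of -0.83 (6.78% of genes as large). The genotype difference of Saa3 was 0.19 in normal colon and -1.58 in tumour, a gap of -1.78 (0.738% of genes as large). That of Reg4 was 0.44 and -0.36, a gap of -0.81 (7.25% of genes as large). That of Reg3b was -0.02 and 0.71, a gap of 0.73 (9.12%), and that of Pigr -0.02 and 0.28, a gap of 0.29 (39.8%). For Reg3b and Pigr the sign in normal colon depends on the scaling, since with arrays centred on their medians both were at 0.02, so they are not shown to differ in direction. The tumour change had opposite signs in the genotypes for 21.7% of all genes tested.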

How the results depend on the processing

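Over both genotypes, 2323 genes passed for tumour against normal colon. With tissue as the only term and 1 array left out, an alternative chosen after seeing the data, 49 to 1650 passed: 49 without the Dmt1F/F normal array, 153 without the Dmt1+/+ tumour array, 502 without the Dmt1+/+ normal array and 1650 without the Dmt1F/F tumour array. For genotype 0 genes passed limma in every alternative run, and 33 to 1482 had an unadjusted p under 0.05. At a log2 difference of 1.5 or more, counts were 620 in place of 1431 for tumour against normal colon in Dmt1+/+, 479 in place of 1181 in Dmt1F/F, 44 in place of 195 for genotype in normal colon and 78 in place of 266 in tumour. With the Dmt1+/+ normal array as baseline for the Dmt1F/F tumour, 735 genes were past 2-fold, and the difference was 2.36 for Lcn2, -2.75 for Reg3g and 0.19 for Hp. Filters, scalings, the probe set rule and the model kept these total counts within 1.5 times. By direction, 1528 genes fell in tumour with arrays centred on their medians in place of 992, and 651 with tissue as the only term. Reg3b, Reg3g and Lcn2 passed for tissue under all 8 settings of filter, scaling, probe set and model, with estimates of -3.22 to -3.16, -2.70 to -2.65 and 3.47 to 3.55; Pigr passed with arrays centred on their medians (-0.43), and Hp, Saa3 and Nos2 passed under none. No called member difference changed sign. No paired analysis was possible because the labels give no replicate numbers, so no block by replicate could be fitted; the additive genotype term already sets tumour against normal colon within each genotype.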
